A study of Mus musculus with 17 samples.

Results

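The genes examined were 10 neighbours of Acss2 on mouse chromosome 2, namely Raly, Ahcy, Ncoa6, Ggt7, Gss, Myh7b, Trpc4ap, Edem2, Mmp24 and Eif6, chosen by symbol and position out of the 24498 gene symbols in the count table. All 10 were measured in all 17 libraries and all 10 passed the filter on low counts. The question was whether the allele that removes Acss2 also alters the genes around it, through a shared promoter region, an overlapping transcript or transcription running past the end of the gene. ACSS2 makes acetyl-CoA from acetate, and in neurons it is known to supply acetyl groups to histones in the nucleus.

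The libraries were poly(A) RNA from dorsal hippocampus of wild-type (WT) mice and of mice with a constitutive ACSS2 knockout (KO), injected intracranially at 6 months of age with PBS or with tau purified from brains of people with Alzheimer's disease (Tau), and taken after a further 6 months. Males of both genotypes received either injection and gave 3 libraries per group. The female libraries were all from Tau-injected mice, 2 WT and 3 KO. Sex was taken from the labels, whereas the published methods state that males were used for bulk RNA sequencing. These 6 groups allowed genotype to be compared within 3 strata, male PBS, male Tau and female Tau. WT and KO mice came from homozygous crosses of the F1 offspring of heterozygotes, and the strain and the exact build of the knockout allele were not given in the sources used here. Loss of ACSS2 and any sequence that came with the allele on chromosome 2 therefore cannot be told apart. The same holds for any other difference between the crosses that gave the WT and the KO mice. Because loss of ACSS2 was constitutive, every KO tissue had also developed without it. Hippocampal markers were present throughout, with 10 dentate granule markers at 221 to 690 CPM in sum and 8 CA1 pyramidal markers at 253 to 751 CPM, none at 0 in any library. The sum of 6 thalamic markers was 50.7 to 94.0 CPM in male PBS, 69.2 to 151 CPM in male Tau and 76.7 to 365 CPM in female Tau, where in KO library 324 it exceeded the 238 CPM of dentate markers. Library totals ran from 14183131 to 22463635 counts. The libraries are described as biological replicates, and p-values measure the spread between them.

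Genes that sit side by side can share control elements, and genes on opposite strands can overlap. An engineered allele can end transcription early, let it run on into the next gene, or carry its own promoter, and each of these would be looked for first in the nearest genes. The neighbours themselves have largely unrelated functions. Gss makes glutathione and Ggt7 belongs to the gamma-glutamyltransferase family, whose members act on glutathione. Ahcy hydrolyses S-adenosylhomocysteine in the methionine cycle. Edem2 trims mannose from misfolded glycoproteins in the endoplasmic reticulum, Eif6 is needed for maturation of the large ribosomal subunit, and Trpc4ap is a substrate adaptor of a ubiquitin ligase. Ncoa6 is a coactivator of nuclear receptors, Raly is an RNA-binding protein of the hnRNP family, Mmp24 is a membrane-bound metalloproteinase of neurons, and Myh7b is a myosin heavy chain of slow muscle that is also transcribed in brain and carries the microRNA gene Mir499 in an intron.

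By the GENCODE M21 annotation of GRCm38, Acss2 lay on the plus strand at chr2:155517948-155585724. Ggt7 (chr2:155490379-155518237, minus strand) was its head-to-head partner. Its outermost transcript overlapped the start of Acss2 by 290 bp, of which 197 bp were exonic in both genes. Gss (chr2:155563181-155592810, minus strand) was the tail-to-tail partner, with 22544 bp of shared gene body and 395 bp of shared exon, or 6.68% of the exonic bases of Gss. That overlap came from the longer Acss2 transcripts, since transcript Acss2-201 ended at 155562746, before Gss. Myh7b (chr2:155611212-155634307) was the next member downstream on the same strand as Acss2, 25.487 kb past its annotated end. Ncoa6 (chr2:155390656-155473894, minus strand) lay 44.053 kb upstream. Trpc4ap (chr2:155634271-155692384, minus strand) lay 48.546 kb downstream and shared 37 bp with the end of Myh7b. Edem2 (chr2:155701677-155729475, minus strand), Mmp24 (chr2:155775342-155818366, plus strand) and Eif6 (chr2:155819832-155826925, minus strand) followed at 115.952, 189.617 and 234.107 kb downstream. Ahcy (chr2:155059310-155074497, minus strand) and Raly (chr2:154791096-154867261, plus strand) were the most distant, 443.45 and 650.686 kb upstream.

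**Figure D1:**
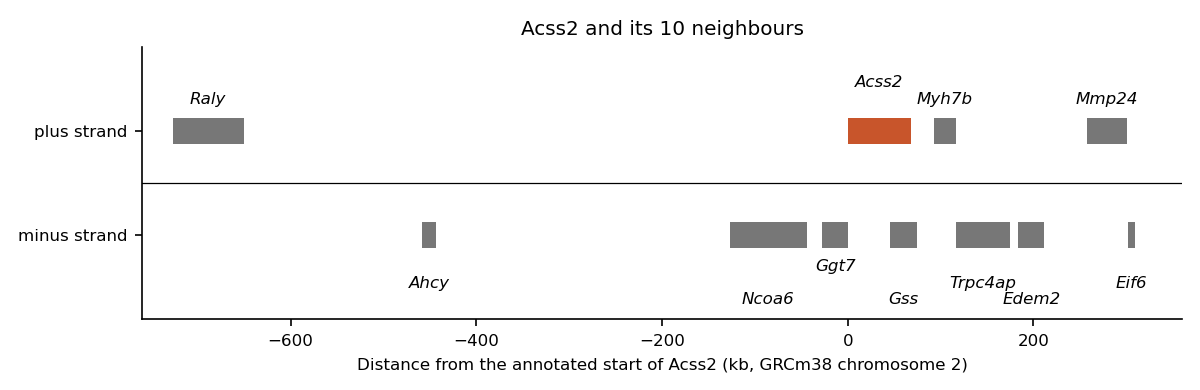
Gene bodies of Acss2 (orange) and the 10 neighbours (grey) by strand, with distance from the annotated start of Acss2 in kb on the x axis. Ggt7 meets Acss2 at its start, Gss overlaps its end on the opposite strand, and Myh7b is the nearest of the 10 downstream on the same strand.

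The 300-base promoter windows (250 bases before and 50 after the RefSeq start, GRCm38.p6) of Acss2 and of the 3 members that adjoin it are shown because they are the start sites most exposed to a change at the locus. Capitals mark GC boxes (GGGCGG, or CCGCCC on the other strand) and CCAAT boxes (CCAAT, or ATTGG on the other strand). The windows are chr2:155517793-155518092 on the plus strand for Acss2, chr2:155514797-155515096 on the minus strand for Ggt7, chr2:155592761-155593060 on the minus strand for Gss, and chr2:155610993-155611292 on the plus strand for Myh7b.
Acss2: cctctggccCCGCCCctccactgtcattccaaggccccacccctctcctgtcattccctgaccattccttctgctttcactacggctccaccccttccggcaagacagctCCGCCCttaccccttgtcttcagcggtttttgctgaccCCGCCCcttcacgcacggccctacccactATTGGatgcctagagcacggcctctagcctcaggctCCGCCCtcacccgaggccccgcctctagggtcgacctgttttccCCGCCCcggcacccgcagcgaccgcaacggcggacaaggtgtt
Ggt7: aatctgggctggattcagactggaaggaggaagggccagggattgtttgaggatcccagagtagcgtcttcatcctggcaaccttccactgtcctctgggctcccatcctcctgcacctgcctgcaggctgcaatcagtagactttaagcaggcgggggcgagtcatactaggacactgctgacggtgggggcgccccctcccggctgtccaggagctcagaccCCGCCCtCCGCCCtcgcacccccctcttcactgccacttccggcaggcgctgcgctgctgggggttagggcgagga
Gss: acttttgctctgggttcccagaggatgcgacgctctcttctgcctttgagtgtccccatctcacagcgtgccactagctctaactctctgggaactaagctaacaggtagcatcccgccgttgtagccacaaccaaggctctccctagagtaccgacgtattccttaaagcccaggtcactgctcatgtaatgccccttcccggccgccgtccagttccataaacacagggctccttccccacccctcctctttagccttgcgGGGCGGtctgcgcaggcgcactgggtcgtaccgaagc
Myh7b: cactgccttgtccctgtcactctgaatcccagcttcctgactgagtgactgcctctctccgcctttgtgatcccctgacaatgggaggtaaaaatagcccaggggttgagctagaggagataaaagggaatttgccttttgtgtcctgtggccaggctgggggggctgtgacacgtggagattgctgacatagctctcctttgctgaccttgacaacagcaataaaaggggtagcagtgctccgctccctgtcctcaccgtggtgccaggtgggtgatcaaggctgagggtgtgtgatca

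The Acss2 window held 5 GC boxes and 1 CCAAT box, the Ggt7 window 2 GC boxes and the Gss window 1, and the Myh7b window held none of these motifs. Of 32851 mouse promoter windows of this length, 35.7% held a GC box and 37.4% a CCAAT box. CpG dinucleotides numbered 20 in the Acss2 window, 16 in that of Gss, 13 in that of Ggt7 and 4 in that of Myh7b, against a median of 7 over all windows. In RefSeq the Ggt7 start lay 3197 bp from that of Acss2, outside the overlap given by the longer GENCODE transcript. Windows were listed for 9 of the 10 members, Eif6 being the exception.

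Acss2 itself separated the genotypes in every stratum. Its level was 49.2, 54.6 and 53.1 CPM (counts scaled to library totals) in male WT PBS and 51.7, 52.2 and 44.0 CPM in male WT Tau, against 3.14, 4.17 and 3.84 CPM in male KO PBS and, after Tau, 5.74, 3.07 and 4.33 CPM in male KO. In females it was 54.3 and 46.4 CPM in WT Tau and 8.81, 6.15 and 4.98 CPM in KO Tau. All 9 KO libraries lay below all 8 WT libraries, but none was at 0. Averaged over the 3 strata, Acss2 fell by 3.37 on the log2 scale in KO (SE 0.132), to 0.0969 of the WT level (edgeR quasi-likelihood test, adjusted p 1.45e-09).

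The antisense transcript Acss2os (chromosome 2, minus strand), which lies within Acss2 and shares exonic bases with it, was the other feature of the locus that followed genotype. It gathered 30 counts over the 8 WT libraries, with 1 to 7 in each, and 2 counts over the 9 KO libraries, with 0 or 1 in each. Its KO to WT ratio of CPM was 0.0625 (exact 95% interval 0.00724 to 0.246, covering counting error only). An exact two-sided permutation of genotype labels within strata gave p = 0.00025, the smallest its 4000 arrangements allow. Acss2os was too low for the fit across genes, and per kb of exon it stood at 0.0641 of Acss2 in WT libraries. In 6 other opposite-strand pairs of the table, the weaker gene lay wholly within exons of an abundant host. There it had a median of 0.0206 of the host's level per kb, with an upper quartile of 0.0955 and a range from 0 to 0.396. The value for Acss2os lay within that range. Only 335 of the 629 exonic bases of Acss2os are shared with Acss2, so the pairs are not like for like. How much of the Acss2os count was sense RNA read on the wrong strand was not tested.

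None of the 10 neighbours passed the test between KO and WT in any stratum. By edgeR at a false discovery rate of 0.05, 0 of 10 were called in male PBS, in male Tau, in female Tau, in the mean of the male strata or in the mean of all 3. Acss2 was the single call among 15098 genes tested in males (0.00662%), among 15419 in the fit of the Tau libraries (0.00649%) and among 15594 in the fit of all libraries (0.00641%). At an unadjusted p under 0.05 there were also 0 of 10 in each of these comparisons, against 4.42% of tested genes in male PBS, 4.71% in male Tau, 2.89% in female Tau, 4.58% in the mean of the male strata and 4.18% in the mean of the 3 strata. DESeq2 called 0 of the 10 in each, beside 0.0265% of genes in male PBS, 0.0464% in male Tau, 0.0729% in the mean of the male strata, 0.00649% in female Tau and 0.0193% in the mean of the 3. limma-voom with quality weights also called 0 of the 10 in each, beside 0.0132% of genes in male Tau and in the mean of the male strata and 0.00662%, 0.00649% and 0.00641% in male PBS, female Tau and the mean of the 3. At an unadjusted voom p under 0.05 there were 3 of 10 in male Tau, beside 23.8% of genes, and 3 of 10 in the mean of the male strata, beside 13.5%, namely Myh7b, Raly and Eif6 each time, all higher in KO. In bulk tissue, fewer cells of a type and less RNA per cell cannot be told apart.

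**Figure D2:**
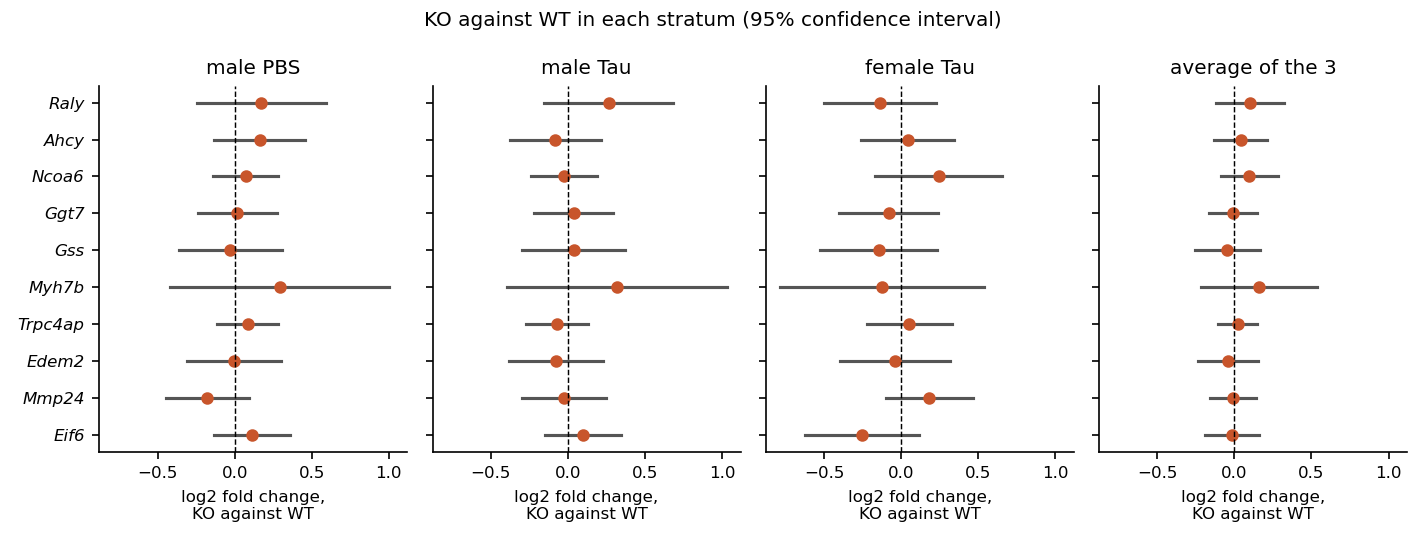
Log2 fold change of KO against WT for the 10 neighbours, ordered by position, in male PBS, male Tau, female Tau and the average of the 3, with 95% confidence intervals from edgeR. Every interval spans 0, and the widest belong to Myh7b.

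The size of difference that these libraries leave room for varied between genes. Averaged over the 3 strata, the 10 differences ran from -0.05 to 0.16 on the log2 scale, 5 above and 5 below 0, with a median absolute value of 0.04 against 0.07 over all genes tested. For Trpc4ap, the most precisely measured, the KO to WT ratio was 1.02 with a 95% confidence interval from 0.930 to 1.11. The intervals of the other members lay between 0.836 and 1.25 except for that of Myh7b, which reached 1.45. No member's difference approached that of Acss2.

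Ggt7, the head-to-head partner, was the most abundant of the 10 per kb of exon. Its level was 144, 140 and 145 CPM in male WT PBS and 128, 161 and 130 CPM in male KO PBS. After Tau it was 120, 125 and 134 CPM in male WT and 107, 136 and 140 CPM in male KO, and in females 94.9 and 111 CPM in WT and 90.4, 102 and 89.9 CPM in KO. The genotypes overlapped in every stratum, with KO libraries on both sides of WT in males. The mean log2 difference over the 3 strata was -0.01 (SE 0.0742), a ratio of 0.994 with an interval from 0.890 to 1.11.

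Gss, which shares its tail with Acss2, read 21.1, 21.2 and 21.7 CPM in male WT PBS and 23.9, 15.2 and 21.3 CPM in male KO PBS. In Tau males it read 19.1, 23.6 and 20.5 CPM in WT and 23.2, 19.4 and 21.3 CPM in KO. In females the values were 29.9 and 22.2 CPM in WT and 17.6, 23.4 and 27.2 CPM in KO. The ranges overlapped in each stratum, and the KO PBS library with 15.2 CPM, number 752, was the lowest of the 17. Without it the male PBS difference went from -0.03 to 0.14, and without library 751 to -0.18. The mean over the 3 strata was -0.05 (SE 0.0998), a ratio of 0.969 with an interval from 0.836 to 1.12.

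Myh7b is where transcription continuing past the end of Acss2 would be met first among the 10 on the same strand. In male PBS it was 16.9, 16.5 and 17.7 CPM in WT and 12.0, 28.7 and 19.9 CPM in KO. In male Tau it was 14.6, 16.3 and 15.2 CPM in WT and 9.65, 21.5 and 25.2 CPM in KO. In female Tau it was 14.3 and 11.7 CPM in WT and 12.0, 9.91 and 12.6 CPM in KO. In each male stratum, the KO libraries included 1 below all WT libraries of that stratum and 2 above them, whereas the females of both genotypes shared a narrow range. The log2 difference was 0.29 in male PBS (SE 0.324, adjusted p 0.999), 0.32 in male Tau (SE 0.325, adjusted p 0.937) and -0.12 in female Tau (SE 0.302, adjusted p 0.997). The male PBS value became -0.04 without library 752 and 0.55 without library 751, and the male Tau value became 0.62 without library 711, with an adjusted p of 0.353. Mir499 had 0 counts in every library, in which 3 counts correspond to 0.134 to 0.212 CPM. It is a microRNA gene of 79 bases, and in poly(A) libraries these zeros put no limit on its level.

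The scatter of Myh7b among male KO libraries was the widest of the 10. Its SD on the log2(CPM + 1) scale, pooled within treatment, was 0.648 in male KO against 0.0654 in male WT, a ratio of 9.92. Over all tested genes the median of this ratio was 1.84, and 95.2% of them had a smaller KO SD than Myh7b. Eif6 had a ratio of 8.15, from an SD of 0.0254 in WT and an SD of 0.207 in KO that was near the all-gene median of 0.206. Raly had a ratio of 4.28, and the remaining members ran from 1.26 for Ncoa6 to 3.25 for Ggt7. These ratios are descriptions and were not tested.

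The male KO libraries that were high and low for Myh7b also differed in tissue markers. The summed level of 10 dentate granule cell markers, all detected in every library, was 690 and 523 CPM in KO libraries 751 and 711, where Myh7b was low, and 229, 221, 298 and 302 CPM in libraries 752, 712, 753 and 713, where it was high. It ranged from 326 to 481 CPM in male WT PBS and from 393 to 473 CPM in male WT Tau. Female KO libraries ran the other way. Their dentate markers were 238, 322 and 561 CPM in libraries 324, 314 and 325, with Myh7b at 9.91, 12.0 and 12.6 CPM. Female WT libraries 331 and 341 had 476 and 451 CPM of these markers and 14.3 and 11.7 CPM of Myh7b. Library 752 also had 450 CPM of 7 striatal markers against 96.1 to 110 CPM in male WT PBS, and library 713 had 4074 CPM of 10 choroid plexus markers against 56.5 to 591 CPM in male WT Tau. Library 752 was low in CA1 markers, at 253 CPM against 581 to 651 CPM in male WT PBS. Libraries 712 and 713 were also low in them, at 445 and 415 CPM against 579 to 656 CPM in male WT Tau. Library 753 had 673 CPM of CA1 markers, library 751 had 751 CPM and library 711 had 649 CPM. Library 711 was high in astrocyte markers, at 4075 CPM against 2482 to 2779 CPM in male WT Tau, and in oligodendrocyte markers, at 7588 CPM against 4454 to 5848 CPM. The sum of 7 striated muscle markers was also lower in libraries 751 and 711, at 12.0 and 17.9 CPM. It was 25.6 and 22.8 CPM in PBS libraries 752 and 753, against 25.4 to 26.7 CPM in male WT PBS. In Tau libraries 712 and 713 it was 42.4 and 35.9 CPM, against 18.2 to 28.0 CPM in male WT Tau. Some muscle markers were at 0, 2 of the 7 in library 711 and 1 in library 751 and in each male WT PBS library. The part of these tissues in the Myh7b levels was not tested. The covariate that follows cannot decide it, since its markers split the male KO libraries in the same way as Myh7b. With the dentate granule score as a covariate, an alternative added after the values had been seen, the Myh7b difference was -0.07 in male PBS, -0.04 in male Tau and -0.06 in the mean of the male strata (SE 0.151), down from 0.30. In female Tau it moved away from 0, from -0.12 to -0.25 (SE 0.281), and the mean of the 3 strata went from 0.16 to -0.10. For Gss the covariate took the male Tau difference from 0.04 to 0.18 (SE 0.0992). No member was called in a genotype comparison with the covariate.

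**Figure D3:**
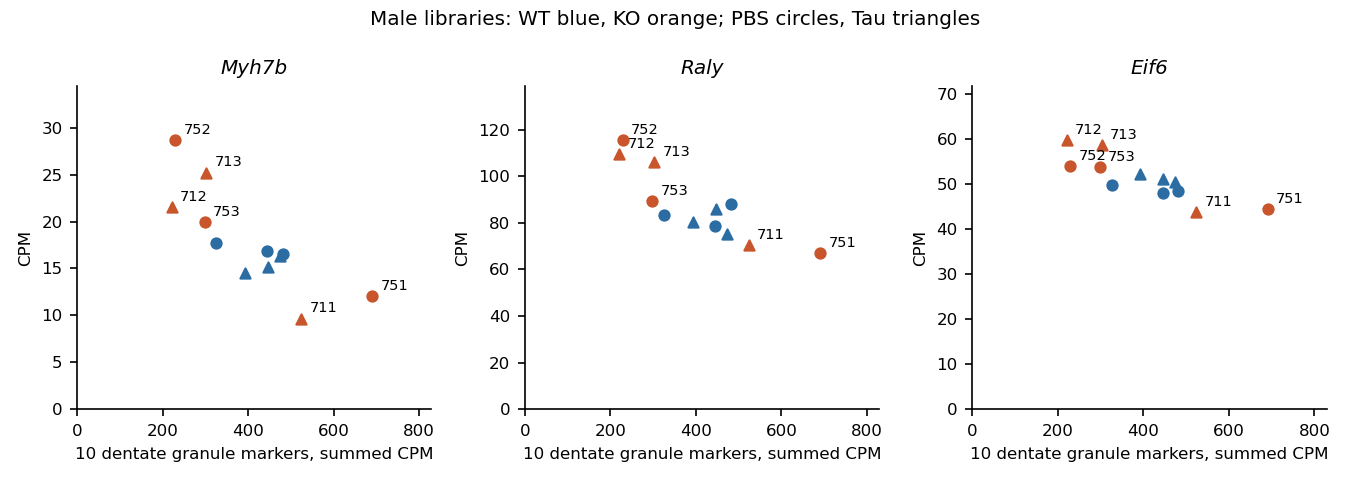
Level of Myh7b, Raly and Eif6 in CPM (y axis) against the summed CPM of 10 dentate granule markers (x axis) in the 12 male libraries, WT in blue and KO in orange, PBS as circles and Tau as triangles, with KO library numbers. KO libraries 751 and 711 lie at the high end of the markers and the low end of each gene, the other 4 KO libraries at the opposite end, and the 6 WT libraries between.

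Raly showed the same arrangement as Myh7b. It was 78.5, 88.0 and 83.2 CPM in male WT PBS and 67.0, 116 and 89.3 CPM in male KO PBS. It was 80.3, 75.4 and 85.8 CPM in Tau males of the WT and 70.4, 110 and 106 CPM in those of the KO, and in females 85.3 and 75.8 CPM in WT and 64.2, 71.1 and 76.9 CPM in KO. The low male KO libraries were again 751 and 711. The log2 difference was 0.17 in male PBS, 0.27 in male Tau (adjusted p 0.927) and -0.14 in female Tau, and its mean over the male strata went from 0.22 (SE 0.135) to 0.01 (SE 0.0784) with the dentate score, while the female difference went to -0.22 (SE 0.142) and the mean of the 3 strata from 0.10 to -0.05. Leaving out 1 library took the male PBS value to -0.04 (without 752) or 0.34 (without 751) and the male Tau value to 0.16 (without 712) or 0.44 (without 711). Raly lies the farthest of the 10 from Acss2.

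Eif6 was 48.0, 48.4 and 49.8 CPM in male WT PBS and 44.4, 54.0 and 53.7 CPM in male KO PBS. In male Tau it was 52.2, 50.6 and 51.2 CPM in WT and 43.8, 59.8 and 58.6 CPM in KO. In female Tau it was 50.2 and 45.5 CPM in WT and 29.7, 45.3 and 41.4 CPM in KO. Each of the female KO libraries lay below both female WT libraries, while in males the genotypes overlapped. The differences were 0.11, 0.10 and -0.25 (SE 0.168) on the log2 scale in male PBS, male Tau and female Tau, and none passed the test. The female value was -0.10 without KO library 314 and -0.39 without KO library 324, and the male Tau value was 0.03 without library 712 and 0.22 without library 711. With the dentate score the male PBS value was 0.03 and the female value -0.33 (SE 0.155).

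Mmp24 was the only member whose groups were apart in male PBS, and 11.7% of tested genes were apart there. It read 53.6, 49.1 and 49.0 CPM in male WT PBS and 47.9, 36.1 and 45.1 CPM in male KO PBS. In male Tau it read 39.8, 40.2 and 45.3 CPM in WT and 45.9, 39.2 and 36.2 CPM in KO, and in female Tau 40.3 and 42.9 CPM in WT and 46.0, 45.5 and 45.5 CPM in KO. KO libraries were thus lower in male PBS, mixed with WT in male Tau and higher in female Tau. The log2 differences were -0.18 (SE 0.123, p 0.176, adjusted p 0.999), -0.03 (SE 0.123) and 0.18 (SE 0.128, p 0.178, adjusted p 0.997). Leaving out 1 library moved the male PBS value between -0.28 (without KO library 751) and -0.07 (without KO library 752), and the female value between 0.11 (without WT library 331) and 0.26 (without WT library 341). In females Mmp24 and Eif6 were the 2 members whose groups did not overlap, beside 16.0% of tested genes. The 3' part of Mmp24 shares 637 exonic bases with the opposite-strand gene BC029722.

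Ncoa6 was 74.2, 72.6 and 68.7 CPM in male WT PBS and 75.0, 71.2 and 71.8 CPM in male KO PBS. After Tau it was 64.4, 69.6 and 76.7 CPM in male WT and 59.1, 71.7 and 73.3 CPM in male KO. In females it was 45.0 and 63.5 CPM in WT and 72.1, 58.0 and 56.1 CPM in KO. The genotypes overlapped in each stratum, and the female WT libraries lay farthest apart. The female difference of 0.24 (SE 0.188) turned to -0.01 without WT library 331 and rose to 0.55, adjusted p 0.665, without WT library 341. In males the differences were 0.07 and -0.02.

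Trpc4ap lay between 201 and 233 CPM in male PBS and between 174 and 213 CPM in male Tau, with genotypes overlapping and differences of 0.08 and -0.07 (SE 0.0914 in each). Edem2 ranged from 17.5 to 30.7 CPM over all 17 libraries, with the lowest value in KO library 752, and differed by -0.01, -0.08 and -0.04 in male PBS, male Tau and female Tau. Ahcy, the least abundant in CPM, ranged from 8.04 to 12.7 CPM. It was the only member whose groups were apart in male Tau, at 10.8, 11.2 and 10.8 CPM in WT and 9.84, 9.95 and 10.7 CPM in KO, where 12.6% of tested genes were apart, and the difference was -0.08 (SE 0.135, adjusted p 0.961). In male PBS the Ahcy difference was 0.16 and the libraries overlapped.

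**Figure D4:**
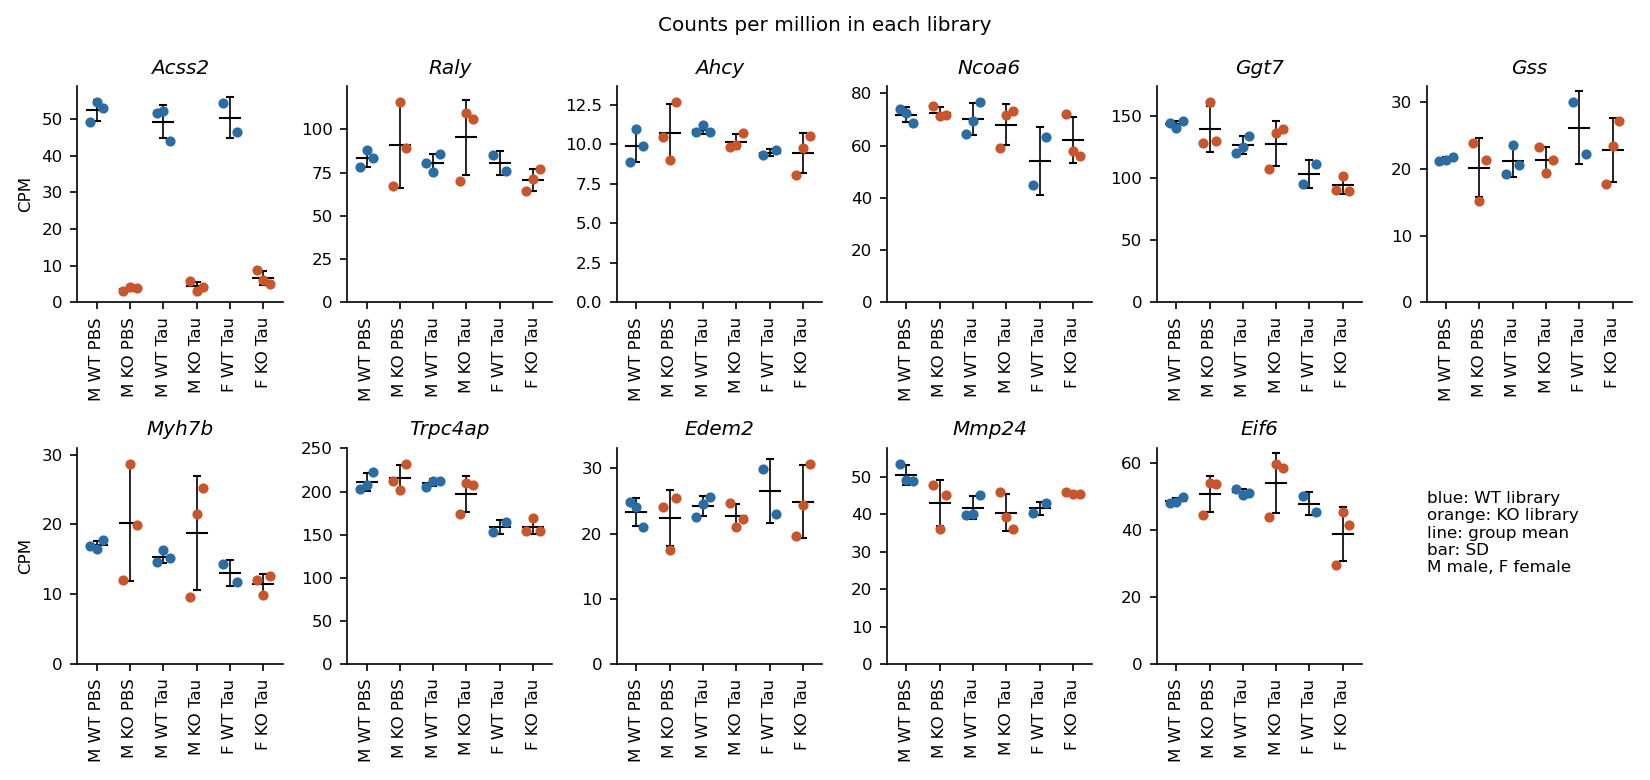
Levels in CPM of Acss2 and the 10 neighbours in each of the 17 libraries by group, WT in blue and KO in orange, with the group mean (line) and SD (bar). Acss2 separates by genotype in each stratum, and the neighbours overlap except Mmp24 in male PBS and female Tau, Ahcy in male Tau and Eif6 in female Tau.

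Whether the genotype difference depended on injection or sex was tested by interaction terms, and 0 of the 10 were called in either, beside 0.0% of all genes. DESeq2 called 0 of the 10 as well, beside 0.013% of genes in the sex interaction. By edgeR no member had an unadjusted p under 0.05, which 4.18% of genes had in the interaction with injection and 2.94% in that with sex. By voom, Raly (-0.53, p 0.00865) and Myh7b (-0.77, p 0.0313) did in the interaction with sex, beside 11.6% of genes, and neither passed the adjustment. For the injection, the interaction ran from -0.24 (Ahcy, p 0.228) to 0.15 (Mmp24, p 0.400). For sex under Tau, it ran from -0.44 (Myh7b, SE 0.402, p 0.297) to 0.27 (Ncoa6), and the smallest p was that of Raly, at -0.40 (SE 0.222, p 0.0958, adjusted p 0.978). Raly was called in this interaction by DESeq2 once library 711 was left out (-0.58, adjusted p 0.0169), when 1.52% of genes were called.

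The injection itself moved none of the neighbours past the threshold. In male WT, 0 of 10 were called for Tau against PBS, beside 0.0% of all genes, and in male KO 0 of 10, beside 0.0% by edgeR and 0.328% by DESeq2. These comparisons use the same libraries as the genotype comparisons in males. Mmp24 had the smallest p in WT, with a difference of -0.29 (SE 0.123, p 0.0376, adjusted p 1.000), when 1.86% of genes had an unadjusted p under 0.05, and with 3 WT Tau libraries all below the 3 WT PBS libraries. Ggt7, Myh7b and Eif6 were the other members apart in WT, at -0.20, -0.16 and 0.06, and 12.2% of all genes were apart. In KO, no member was apart, beside 9.01% of genes, none had an unadjusted edgeR p under 0.05, beside 7.95%, and Mmp24 differed by -0.14 (SE 0.123).

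Several neighbours were lower in the female than in the male Tau libraries, a comparison added after the levels had been seen. By edgeR, 3 of 10 were called, beside 23.8% of all genes, and all 3 were lower in females, beside 12.4% of genes called lower. DESeq2 called 4, beside 28.1%, and voom called 7, beside 40.1%. Trpc4ap ran from 153 to 169 CPM in the 5 female libraries and from 174 to 213 CPM in the 6 male Tau libraries, without overlap (log2 difference -0.42, SE 0.0842, edgeR adjusted p 0.00977). Ggt7 differed by -0.43 (SE 0.0990, adjusted p 0.0147) and Eif6 by -0.36 (SE 0.114, adjusted p 0.0425), each with overlapping ranges. Gss, Edem2 and Mmp24 differed by 0.13, 0.06 and 0.02. Without female WT Tau library 331, 0 members were called, with Trpc4ap at -0.38 (adjusted p 0.0538) and Ggt7 at -0.36 (adjusted p 0.0771), and the call for Eif6 was also lost without any of several other libraries. Without male KO Tau library 711, 5 were called. The shares of all genes called with these libraries left out are not given here. Whether the members moved more than other genes therefore cannot be told from these counts. Summed astrocyte markers were 4288 to 6011 CPM in the female libraries and 2218 to 4075 CPM in the male Tau libraries, and their part in these differences was not tested. Sex cannot be told apart from any other way in which the female libraries differed as a set.

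The neighbourhood was then widened to every gene of the table within 1 Mb of Acss2. Of 50 such genes, 43 were tested, and 0 were called in the mean of the 3 strata. Their median absolute difference was 0.05 on the log2 scale, against 0.07 over all genes. At an unadjusted p under 0.05 there were 3 (6.98%, beside 4.18% of all genes): Spag4 at -0.30, Cep250 at 0.14 and Epb41l1 at 0.17, each with an adjusted p of 0.987. These 3 lay 479 kb, 371 kb and 835 kb downstream, on the strand of Acss2. Spag4, a sperm-associated gene, stood at only 2.83 CPM in WT and 2.23 CPM in KO. The 5 genes tested within 0.1 Mb were all members already described, namely Ncoa6, Ggt7, Gss, Myh7b and Trpc4ap, so this narrower window adds nothing new. Of these, 0 had a p under 0.05. The count at an unadjusted p under 0.05 was 2 of 23 within 0.5 Mb, 5 of 68 within 2 Mb and 2 of 40 among the 20 tested genes on each side.

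**Figure D5:**
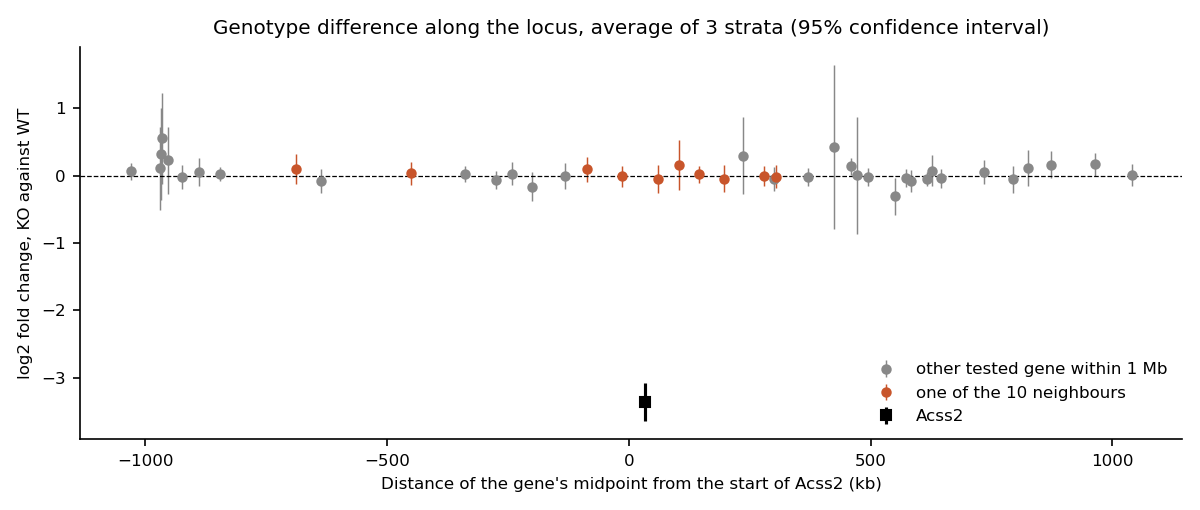
Log2 fold change of KO against WT averaged over the 3 strata (y axis, 95% confidence intervals) for tested genes within 1 Mb, by distance of the gene midpoint from the start of Acss2 in kb (x axis), with the 10 neighbours in orange and Acss2 as a black square. Acss2 lies at -3.37, while the other 43 genes lie between -0.30 and 0.55.

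Genes that work with the neighbours but lie elsewhere in the genome did not pass the test either. Of 51 listed partners in 4 processes, 50 were tested and 0 were called in the mean of the 3 strata, where 0.00641% of all genes were. In glutathione metabolism, the process of Gss and of the family of Ggt7, 6 of 16 tested genes lay above 0 and 10 below, with a median of -0.03. Gpx1, which reduces peroxides with glutathione, differed by 0.18 (SE 0.0847, adjusted p 0.987). In the methionine cycle, the process of Ahcy, the 12 genes had a median of -0.0023. Mat2a, which makes S-adenosylmethionine, had the smallest p of all partners, with a difference of -0.14 (SE 0.0536, p 0.0172, adjusted p 0.987). Among 12 genes of endoplasmic reticulum degradation, the process of Edem2, the median was -0.02, and Erlec1 differed by -0.08 (SE 0.0455). Among 10 genes of large ribosomal subunit maturation, the process of Eif6, the median was -0.03, and Zfp622 differed by 0.10 (SE 0.0493, p 0.0507). The median over all genes was -0.00023. Within strata, the median of the 16 glutathione genes was -0.0023 in male PBS, 0.05 in male Tau and -0.07 in female Tau. Of these genes, 0, 3 and 1 had an unadjusted edgeR p under 0.05, beside 4.42%, 4.71% and 2.89% of all genes. No other list had more than 1 in a stratum, and 0 partners were called.

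The neighbours differed widely in RNA level. Exon length here pooled all annotated transcripts of a gene, 10163 bases for Acss2, 5915 for Gss and 2702 for Eif6. The order that follows rests on that divisor. In male WT PBS, per kb of annotated exon, Ggt7 was highest at 43.8 ± 0.919 CPM per kb (SD, n = 3), followed by Raly at 25.3 ± 1.44 and Trpc4ap at 24.1 ± 1.15, whose ranges overlapped. Eif6 at 18.0, Mmp24 at 10.8, Ncoa6 at 7.37 and Edem2 at 6.73 CPM per kb came next, the last pair overlapping. Acss2 stood at 5.15 ± 0.274, above Gss at 3.61 ± 0.0548 and Ahcy at 3.54 ± 0.379, which overlapped, and Myh7b was lowest at 2.57 ± 0.0920 CPM per kb. Of the genes that adjoin Acss2, Ggt7 was thus the strongest of the 10 and Myh7b the weakest.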

How the data were processed

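The authors deposited 1 table of gene counts for all libraries. According to the labels and methods, reads were aligned with STAR 2.5.2 to mm10 (GRCm38) and exonic reads were counted with HTSeq 0.9.1 set to reverse strand. The annotation release was not given in the sources used here. The kit named in the labels is, as far as is known, not one that marks strand. In the 6 opposite-strand gene pairs examined, the weaker gene nevertheless stood at a median of 0.0206 of its host per kb, but at 0.396 in 1 pair. From these counts, libraries were scaled by TMM and fitted with the quasi-likelihood test of edgeR 4.0.16 after filterByExpr (minimum count 10, total 15), with Benjamini-Hochberg adjustment over all genes and a threshold of 0.05. The 12 male, 11 Tau and all 17 libraries were fitted separately, with 1 coefficient per group. DESeq2 1.42.0, limma-voom (limma 3.58.1), RLE scaling, no filter, other sets of libraries and leaving out each library were alternatives. CPM divides counts by the library total. The code was tested on simulated counts. Members and lists were chosen with earlier results of these data known. Named genes were Acss2, the 10 members, window genes with an unadjusted p under 0.05, up to 3 partners of each list by p (the first is given) and genes sharing exons with them. Positions came from GENCODE M21 and promoters from RefSeq. No column of the authors' own comparisons was present in the table.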

Additional observations from a re-analysis of the deposited data

Results flagged for a closer look

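Mmp24 was picked out because its genotype difference pointed in opposite directions in 2 strata. The differences of Eif6, Raly, Myh7b and Ggt7 also changed sign between male PBS and female Tau. In male PBS the Mmp24 difference was -0.18 on the log2 scale, with all 3 KO libraries below all 3 WT libraries. In female Tau it was 0.18, with all 3 KO libraries above both WT libraries. Leaving out 1 library moved these between -0.28 and -0.07 and between 0.11 and 0.26, and adjustment for dentate markers gave -0.10 and 0.21. These strata differ in both sex and injection. In the fit of all 17 libraries, a test added after the values had been seen, the female Tau difference exceeded the male PBS difference by 0.36 (SE 0.175, p 0.0571, edgeR adjusted p 1.000), which missed the threshold. For Eif6 the same edgeR test gave -0.36 (SE 0.203, p 0.0931), and the remaining members had p of 0.246 or more. For Mmp24, the genotype by sex interaction within Tau was 0.21 (SE 0.171, p 0.246, edgeR), and within males the genotype by treatment interaction was 0.15 (SE 0.174, p 0.400).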

How the results depend on the processing

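Across 780 combinations of member, genotype comparison and alternative, 0 were called, as were 0 when DESeq2 was run with each library left out. Over the 780, the smallest adjusted p was 0.100 and the largest absolute log2 difference was 0.62. In the genotype by sex interaction, DESeq2 without male KO Tau library 711 called 1 member, and leave-one-out counts for that interaction otherwise stayed at 0. Among window genes, DESeq2 without female KO Tau library 325 called 1, 2900097C17Rik (adjusted p 0.0346, named after its value was seen). That fit called 89 of the 3483 genes given an adjusted p, against 3 of 15579 with all libraries. The count of window genes called was otherwise 0. For the female against male comparison in Tau, voom called 7 members, and leave-one-out counts ran from 0, without female WT Tau library 331, to 6, by DESeq2 without male KO Tau library 711, with 5 by edgeR without that library. For the female against male comparison, the shares of all genes called with a library left out are not given here. Its leave-one-out counts therefore do not show a change particular to the members. The causes of these shifts were not tested. No paired analysis was possible because the replicate numbers in the labels are not shared between groups. Counts of Acss2os were too few for the fit across genes, and with 2 or 3 libraries per group the intervals of Myh7b allow differences of up to 2.04-fold within a male stratum.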
